A study of Mus musculus with 24 samples.

Results

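HiFi-RfxCas13d was compared with RfxCas13d, the nuclease it was derived from, in Neuro2A cells, a mouse neuroblastoma line. The samples were chosen by the effector named in their labels: 12 of the 24 samples of the series carried one of these effectors, 6 each. Every gene that passed a filter on level across all 24 samples was tested. Each effector was paired with a non-targeted (NTG) crRNA in 3 samples and with the mATXN2-targeting crRNA-10 in 3 samples, so that the effectors could be compared within each crRNA arm. Cells of wild-type genotype were transiently transfected with a plasmid that expresses the effector from the CAG promoter and the crRNA from the U6 promoter, and RNA was collected 48 hr later. The other 12 samples were DiCas7-11 in both arms, an antisense oligonucleotide (ASO) group and untransfected cells, 3 per group, and serve here as reference levels. The count table's columns read EV and G12 where the sample labels read NTG and G10, so what the control plasmid carried is in doubt. So is the number of the targeting crRNA, and the names in the sample labels are used here. No sorting of transfected cells is described, and neither the share of transfected cells nor the level of effector was measured in these files. A lower level in bulk RNA can mean fewer cells that express a gene or less RNA per cell, and these cannot be told apart. The effectors were in separate cultures, so a difference between effectors and a difference between those cultures cannot be told apart either.

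Cas13d proteins use a crRNA to find a complementary RNA and cleave it, and binding of that target can also switch on cleavage of unrelated RNAs, known as collateral trans-cleavage. HiFi-RfxCas13d, also called RfxCas13d-N2V7, carries mutations that were selected to lower this second activity. RNA fragments, structured RNA and foreign nucleic acid can be recognised by sensors such as RIG-I, OAS proteins and PKR. Signalling by RIG-I leads to interferon production and to transcription of interferon-stimulated genes (ISGs).

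The 12 libraries held between 14212492 and 19857305 expected counts, with a median of 16285101.5, and 13899 genes were tested across all 24 samples. Levels are given as CPM, counts scaled to a common library size by the TMM method. Differences are log2 fold changes, HiFi-RfxCas13d over RfxCas13d, averaged over both arms unless an arm is named, with standard errors (SE) and p-values from edgeR's quasi-likelihood test adjusted by the Benjamini-Hochberg method over all genes. A gene is called higher or lower where its adjusted p was under 0.05. Transcription factors of the sympathetic lineage marked the cells as neuroblasts. In the 12 samples, Hand2 was at 362 to 390 CPM and Gata2 at 206 to 250 CPM. Of the neurofilament genes, Nefl and Nefm reached no more than 0.217 and 0.312 CPM, whereas Nefh was at 426 to 449 CPM. Of the markers of other cell types, 6 of 8 for fibroblasts, 7 of 9 for glia, 8 of 8 for macrophages and 5 of 6 for endothelium were under 1 CPM in all 12 samples, and none of those tested was called. The summed levels of these lists were 5.81 to 9.1, 15.1 to 17.1, 0.12 to 0.83 and 8.1 to 9.9 CPM with RfxCas13d and 5.72 to 7.7, 15.3 to 18.3, 0.52 to 0.839 and 7.21 to 8.92 CPM with HiFi-RfxCas13d.

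With HiFi-RfxCas13d, 36 of 63 tested ISGs and nucleic acid sensors and 27 of 38 tested genes of glycolysis and the hypoxia response were lower than with RfxCas13d, the latter by a smaller margin, and 6 of 24 genes of cholesterol synthesis were higher. In all, 463 of the 13899 genes were called (3.33%), of which 191 were higher (1.37%) and 272 were lower (1.96%). Most of these differences were small. The median size among the called genes was 0.15 on the log2 scale, with 42 genes below -0.5 and 6 above 0.5. The median difference over all tested genes was -0.00047. At an unadjusted p under 0.05, 2256 genes (16.2%) would have passed. All 6 HiFi-RfxCas13d samples lay below all 6 RfxCas13d samples for 175 genes (1.26%) and above them for 134 genes (0.964%), 309 genes in all (2.22%). Within each arm taken separately, the 3 HiFi-RfxCas13d samples lay below the 3 RfxCas13d samples in both arms for 293 genes (2.11%) and above them in both for 259 (1.86%).

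**Figure D1:**
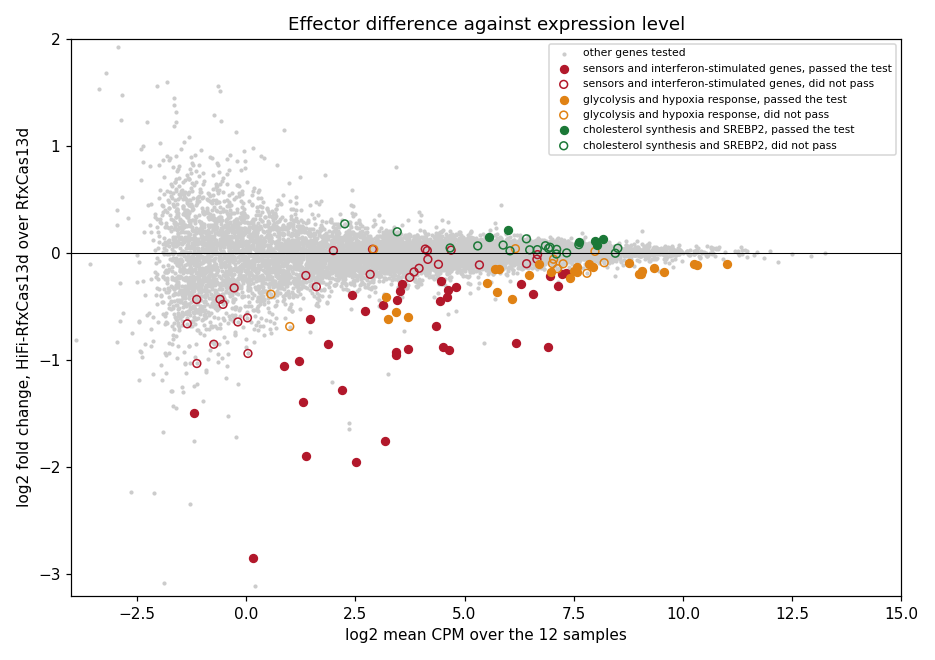
Each point is 1 tested gene, placed by its log2 mean CPM over the 12 samples (horizontal) and its log2 fold change, HiFi-RfxCas13d over RfxCas13d (vertical), with 25 genes outside the plotted range. Filled points of the 3 coloured lists passed the test and open ones did not: the red points (sensors and ISGs) that passed are all below 0, as are the orange ones (glycolysis and hypoxia), and the green ones (cholesterol) are all above 0.

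The difference between effectors was then examined in each arm on its own, in separate samples. In the NTG arm 86 genes were called (0.619%), 16 higher (0.115%) and 70 lower (0.504%) with HiFi-RfxCas13d. In the mATXN2 arm 130 were called (0.935%), 50 higher (0.36%) and 80 lower (0.576%). Of the 86 genes called in the NTG arm, 81 (94.2%) differed in the same direction in the mATXN2 arm, 69 (80.2%) did so with an unadjusted p under 0.05, against 14% of all genes at that p in either direction, and 44 were called in both arms. Of the 130 called in the mATXN2 arm, 117 (90%) had the same direction in the NTG arm and 76 (58.5%) also an unadjusted p under 0.05, against 9.91% of all genes. The test of whether the effector difference itself differed between arms called 0 genes with edgeR, of which 854 (6.14%) had an unadjusted p under 0.05. DESeq2 and limma-trend also called 0, with 552 and 905 genes at that unadjusted p. A p that misses the threshold does not show that the arms were alike.

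**Figure D2:**
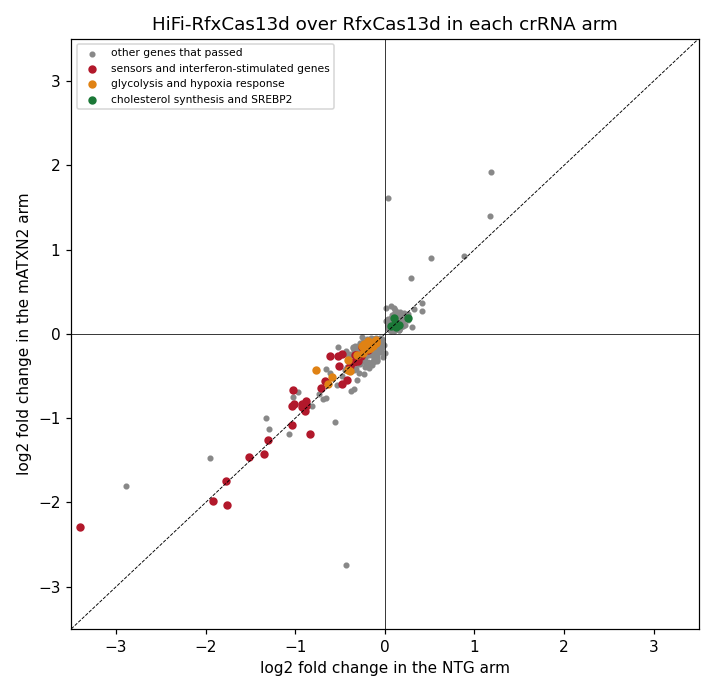
Each point is 1 of the 463 called genes, with the log2 fold change, HiFi-RfxCas13d over RfxCas13d, in the NTG arm (horizontal) and in the mATXN2 arm (vertical); the dashed line marks equal values, and 2 genes lie outside the plotted range. Because genes were called on the mean of both arms, 461 of the 463 have the same sign in both, and the points of the sensors and ISGs extend furthest below 0 along the line among the 3 coloured lists.

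Atxn2, the gene that encodes ataxin-2 and the target of crRNA-10, was measured at 120, 122 and 125 CPM in the RfxCas13d NTG samples and at 123, 112 and 123 CPM in the HiFi-RfxCas13d NTG samples. With the mATXN2 crRNA it was at 116, 112 and 113 CPM with RfxCas13d and at 98.8, 102 and 104 CPM with HiFi-RfxCas13d. The effectors overlapped in the NTG arm, whereas the 3 HiFi-RfxCas13d samples were below the 3 RfxCas13d samples in the mATXN2 arm. The log2 fold change was -0.04 (SE 0.036, adjusted p = 0.812) in the NTG arm and -0.16 (SE 0.037, adjusted p = 0.0232) in the mATXN2 arm, and -0.10 (SE 0.026, adjusted p = 0.0277) on average. An exact two-sided permutation test of effector labels within the arms gave p = 0.035, where 400 arrangements allow no p below 0.005. The difference between arms in this value had an unadjusted p of 0.0207 and an adjusted p of 0.741, and so was not called. In the mATXN2 arm alone the exact permutation p was 0.1, the smallest that 3 against 3 samples allow, and the edgeR call there was lost when any one of 5 libraries of that arm was left out, with adjusted p-values up to 0.127. The average was no longer called when any one of 7 of the 12 libraries was left out, with adjusted p-values up to 0.104.

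The transcripts of the interferon response formed the lists with the lowest medians. Of 63 tested nucleic acid sensors and ISGs, 36 were lower with HiFi-RfxCas13d (57.1%, against 1.96% of all genes) and 0 were higher. For 24 of the 63, all 6 HiFi-RfxCas13d samples lay below all 6 RfxCas13d samples, against 1.26% of all genes. The median log2 fold change of the 63 was -0.43, with -0.48 in the NTG arm and -0.38 in the mATXN2 arm. The summed level of all 68 listed genes, tested or not, was between 1808 and 2052 CPM with RfxCas13d. With HiFi-RfxCas13d it was between 1505 and 1623 CPM, without overlap. DiCas7-11, an effector of another CRISPR family, gave 1582 to 1703 CPM, and untransfected cells had 1230 to 1258 CPM. Both Cas13d effectors therefore had summed levels above those of untransfected cells, and those of HiFi-RfxCas13d overlapped with DiCas7-11. Replicate 1 of RfxCas13d with the mATXN2 crRNA had the lowest sum of its effector, and without that library 34 members were called.

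Among the sensors and their signalling proteins, Ddx58, which encodes the RNA helicase RIG-I, was at 32.1, 29.4 and 32.4 CPM in the RfxCas13d NTG samples and at 22.8, 34.9 and 25.7 CPM in the mATXN2 samples. With HiFi-RfxCas13d it was at 19.5, 15.1 and 15.2 CPM and at 15.6, 16.5 and 15.1 CPM in the same arms. Every HiFi-RfxCas13d sample was below every RfxCas13d sample, and Ddx58 fell by 0.88 on the log2 scale (SE 0.082, adjusted p = 3.7e-08). Oas1a, whose family makes the messenger that activates RNase L, had a lowest, median and highest level of 10.6, 14.1 and 16.8 CPM with RfxCas13d and of 3.44, 3.82 and 5.7 CPM with HiFi-RfxCas13d. That is 3.38-fold higher with RfxCas13d (log2 fold change -1.76, SE 0.176, adjusted p = 1.09e-07). Untransfected cells had 0.319 to 0.719 CPM of Oas1a. Its paralogs Oas1g (-1.39), Oas1b (-1.01) and Oas1c (-0.39), the last overlapping between effectors, were also called. Reads could be divided among these near-identical genes, so the separate values are uncertain. The call for Oas1c was lost without any one of 10 of the 12 libraries, with adjusted p-values up to 0.155, and with DESeq2 and limma-trend. Oas2 had the largest fold change among the called members (-2.85, SE 0.419), at no more than 3.42 CPM in any of the 12 samples. Its call was lost with DESeq2.

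Eif2ak2, which encodes the RNA-activated kinase PKR, was lower by a smaller margin, at 76.3 to 94.8 CPM with RfxCas13d and 66.1 to 75.1 CPM with HiFi-RfxCas13d (-0.29, SE 0.041, adjusted p = 3.76e-05). The OAS-like genes Oasl2 (-0.93) and Oasl1 (-0.49) and the ubiquitin ligase Trim25 (-0.21), which acts on RIG-I signalling, were called too. In all, 10 of 22 sensors were lower (45.5%, against 1.96% of all genes). Genes of the same pathway that were not called included the DNA sensor Cgas (0.04), its partner Sting1 (-0.14), the mitochondrial adaptor Mavs (0.04), the kinase Tbk1 (-0.01) and the transcription factor Irf3 (0.02). The RNA sensors Ifih1 (-0.32) and Tlr3 (-0.43), at no more than 1.17 CPM in any of the 12 samples, were also not called.

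Of the 41 ISGs tested, 26 were lower (63.4%, against 1.96% of all genes). Usp18, which encodes a protease that removes ISG15 and dampens interferon receptor signalling, was at 11.2, 7.17 and 12 CPM in the RfxCas13d NTG samples and at 5.53, 9.78 and 8.92 CPM in the mATXN2 samples. With HiFi-RfxCas13d it was at 2.46, 2.68 and 2.87 CPM and at 2.6, 2.16 and 1.47 CPM. The groups did not overlap, and the level was 3.87-fold higher with RfxCas13d (log2 fold change -1.95, SE 0.181, adjusted p = 3.7e-08). Irf7, a transcription factor that amplifies interferon production, had a median of 4.3 CPM with RfxCas13d and 0.977 CPM with HiFi-RfxCas13d (-1.90, SE 0.191, adjusted p = 1.16e-07). Untransfected cells had 0.717 to 0.962 CPM of Usp18 and 0.128 to 0.478 CPM of Irf7, below every sample of both effectors.

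Bst2, which encodes the membrane protein tetherin that holds budding virus at the cell surface, was at 33.1, 31.2 and 34.1 CPM in the RfxCas13d NTG samples and at 25.9, 39.1 and 31.9 CPM in the mATXN2 samples. With HiFi-RfxCas13d it was at 19.4, 18 and 15.9 CPM and at 16.4, 17.8 and 17.1 CPM. This was again a difference without overlap (-0.90, SE 0.0705, adjusted p = 1.96e-09), with untransfected cells at 10.7 to 12.4 CPM. Ifi27 (-0.87) and the secreted glycoprotein Lgals3bp (-0.84) were likewise without overlap, and untransfected cells were below both effectors. Of the factor that binds the interferon-stimulated response element (ISRE), Irf9 fell by 0.90 on the log2 scale and was called, whereas Stat2 (-0.11) was not.

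**Figure D3:**
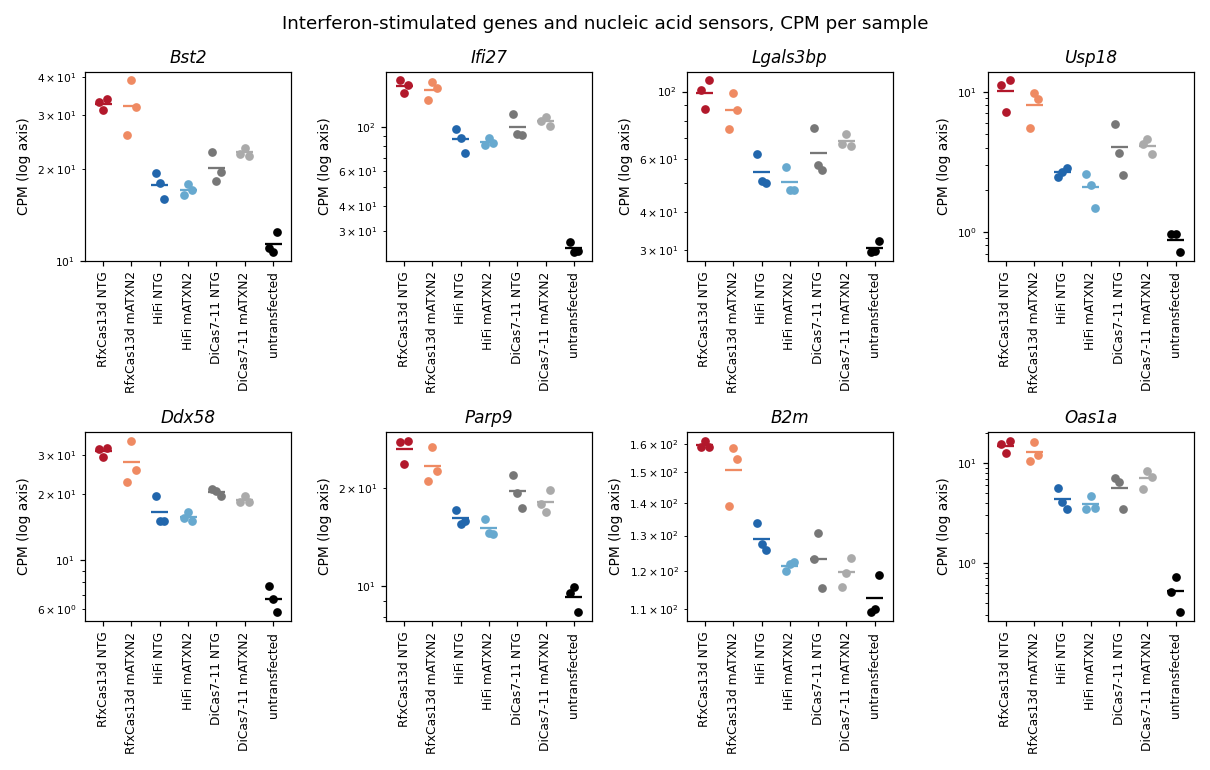
CPM on log axes for the 8 called sensors and ISGs with the smallest p, where each point is 1 sample and each line the mean of 3 samples. In all 8 panels the 6 HiFi-RfxCas13d samples (blue) lie below the 6 RfxCas13d samples (red and orange), as in Bst2, where 15.9 to 19.4 CPM compare with 25.9 to 39.1 CPM.

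Genes of antigen presentation by MHC class I, which interferon also induces, moved by less. B2m, the invariant light chain, was at 159, 161 and 159 CPM and at 139, 158 and 155 CPM in the NTG and mATXN2 arms of RfxCas13d. It was at 134, 127 and 126 CPM and at 120, 122 and 123 CPM in those of HiFi-RfxCas13d. The difference was -0.31 (SE 0.031, adjusted p = 9.72e-08), again without overlap. The heavy chains H2-K1 and H2-D1 fell by 0.19 each, the immunoproteasome subunit Psmb8 by 0.34 and the peptide transporter subunit Tap1 by 0.29 on the log2 scale, all called and without overlap. H2-K1 and H2-D1 are near copies, so their separate values are uncertain. Psmb9 (-0.21) was not called.

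Not every ISG differed. Ifit1, which binds RNA that lacks the host cap methylation, was at 13 to 24.6 CPM with RfxCas13d and 15.8 to 18.9 CPM with HiFi-RfxCas13d, overlapping and not called (-0.06, SE 0.072), while untransfected cells had no more than 0.12 CPM. Mx2 (0.02), Ifit2 (-0.20) and Irf1 (-0.10) were not called either. Isg15, the ubiquitin-like protein that Usp18 removes, was called (-0.36, SE 0.078, adjusted p = 0.00825), but its ranges of 9.75 to 16.3 CPM and 8.81 to 11 CPM overlapped.

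Several called genes outside these lists are known to respond to interferon and were chosen here after their values were seen. Lgals9, which encodes galectin-9, had the smallest p of all genes, at 47.5 to 62.2 CPM with RfxCas13d and 27 to 36.8 CPM with HiFi-RfxCas13d (-0.84, SE 0.058, adjusted p = 2.17e-10). The immunity-related GTPases Irgm2 (-1.12), Igtp (-1.21) and Irgm1 (-0.54), the receptor chaperone Rtp4 (-1.71), the chemokine Cxcl1 (-0.73) and the MHC loading factor Tapbp (-0.43) were also lower. So were Apol9a (-0.89) and Apol9b (-0.73), a pair of near-identical genes whose separate values are uncertain.

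Promoter sequences are shown for 6 called members, to make visible the element through which the ISRE-binding factor is known to act. They were taken from RefSeq, build GRCm38.p6, and cover the 150 bases before the annotated start, written 5′ to 3′ in the direction of transcription. Capitals mark matches to the ISRE core, a pair of GAAA repeats with 2 bases of any kind between them, on either strand, and matches that overlap are run together. The 6 are the called members with the smallest p that had such a match in this window, with Oas1g and Oas1c left out as paralogs of Oas1a.
Bst2, chr8:71537473-71537622, minus strand: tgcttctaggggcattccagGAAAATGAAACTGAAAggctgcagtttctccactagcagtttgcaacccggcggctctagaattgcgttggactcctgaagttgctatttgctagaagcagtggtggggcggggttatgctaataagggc
B2m, chr2:122147537-122147686, plus strand: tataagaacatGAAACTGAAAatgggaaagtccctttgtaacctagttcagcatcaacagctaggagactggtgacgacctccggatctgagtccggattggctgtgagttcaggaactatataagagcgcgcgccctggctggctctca
Oas1a, chr5:120907526-120907675, minus strand: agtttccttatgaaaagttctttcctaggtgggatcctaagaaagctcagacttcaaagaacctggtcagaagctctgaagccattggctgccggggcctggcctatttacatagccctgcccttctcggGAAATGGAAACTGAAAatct
Isg15, chr4:156200819-156200968, minus strand: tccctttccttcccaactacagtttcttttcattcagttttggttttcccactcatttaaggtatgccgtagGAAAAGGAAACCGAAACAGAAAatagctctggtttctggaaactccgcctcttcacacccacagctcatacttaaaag
Rsad2, chr12:26456453-26456602, minus strand: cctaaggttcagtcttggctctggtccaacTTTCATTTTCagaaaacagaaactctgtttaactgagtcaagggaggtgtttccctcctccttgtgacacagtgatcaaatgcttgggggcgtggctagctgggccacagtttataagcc
Gbp3, chr3:142559894-142560043, plus strand: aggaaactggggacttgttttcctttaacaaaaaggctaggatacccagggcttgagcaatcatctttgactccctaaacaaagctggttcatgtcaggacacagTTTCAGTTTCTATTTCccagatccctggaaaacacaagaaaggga
In Isg15 the capitals hold 3 overlapping matches, in Bst2, Oas1a and Gbp3 2 each. Over the 250 bases before the start, the core was found for 9 of the 28 called members with a RefSeq promoter (32.1%) and for 6 of the 23 members that were not called (26.1%). It was found for 3.46% of the 27025 genes in the table and for 3.06% of the 10848 tested genes matched to it. The match is a description of the sequence and does not show that a factor was bound.

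The second list with many called members was that of glycolysis and the response to hypoxia, in which the factor HIF-1 raises glucose transport, glycolytic enzymes and mitophagy genes when oxygen is low. Of 38 tested members, 27 were lower with HiFi-RfxCas13d (71.1%, against 1.96% of all genes) and 0 were higher. For 25 members all 6 HiFi-RfxCas13d samples were below all 6 RfxCas13d samples, against 1.26% of all genes. The median was -0.16, with -0.17 in the NTG arm and -0.15 in the mATXN2 arm. Summed CPM of all 39 listed genes, tested or not, were between 11385 and 11975 with RfxCas13d and 10448 and 10877 with HiFi-RfxCas13d. They were between 9771 and 11269 with DiCas7-11 and 11492 and 12045 in untransfected cells. The RfxCas13d samples thus overlapped with untransfected cells and the HiFi-RfxCas13d samples with DiCas7-11, an order that differs from that of the ISGs. With each of the 12 libraries left out in turn, the number of called members was 17 without replicate 2 of HiFi-RfxCas13d with the mATXN2 crRNA and 18 to 26 in the other cases.

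Ero1a, an oxidase that forms disulfide bonds in the endoplasmic reticulum and is induced by hypoxia, had the smallest p of the list. It was at 183, 189 and 195 CPM and at 178, 179 and 181 CPM in the NTG and mATXN2 arms of RfxCas13d, and at 159, 156 and 165 CPM and 147, 149 and 162 CPM in those of HiFi-RfxCas13d. No sample overlapped (-0.24, SE 0.034, adjusted p = 4.58e-05). Untransfected cells had 178 to 201 CPM and DiCas7-11 had 123 to 149 CPM. Of the glycolytic enzymes, Pgk1 fell by 0.20, Eno1 by 0.20, Aldoa by 0.18, Tpi1 by 0.17, Pkm by 0.11 and Gapdh by 0.10 on the log2 scale, all called and without overlap. Gapdh, often taken as a constant reference, was at 2108.9 to 2161.4 CPM with RfxCas13d and at 1924.4 to 2045.8 CPM with HiFi-RfxCas13d.

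Larger fold changes were found for lower-expressed members. The kinase Pdk1, which limits entry of pyruvate into mitochondria, was at 10.1 to 13 CPM with RfxCas13d and at 6.59 to 8.33 CPM with HiFi-RfxCas13d (-0.62, SE 0.158, adjusted p = 0.0256). Ndrg1 (-0.60), Ankrd37 (-0.55), the mitophagy receptor Bnip3 (-0.42) and the aldolase Aldoc (-0.41) were called as well, each without overlap. The glucose transporter Slc2a1 (-0.28) was called with overlapping ranges. The call for Pdk1 was lost without any one of 6 libraries, with adjusted p-values up to 0.0798, and with DESeq2 and limma-trend. That for Slc2a1 was lost without any one of 9 libraries, with adjusted p-values up to 0.127, and with DESeq2. The Bnip3 call was also lost with DESeq2. Hif1a itself (0.02), the regulator Pfkfb3 (0.04) and the prolyl hydroxylases Egln1 (-0.10) and Egln3 (-0.38) were not called.

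For 3 called members of this list, the 150 bases before the start are shown from the same RefSeq table, with matches to ACGTG, the core of the hypoxia response element, in capitals on either strand. They are the members with the smallest p that had a match in the window.
Ero1a, chr14:45318573-45318722, minus strand: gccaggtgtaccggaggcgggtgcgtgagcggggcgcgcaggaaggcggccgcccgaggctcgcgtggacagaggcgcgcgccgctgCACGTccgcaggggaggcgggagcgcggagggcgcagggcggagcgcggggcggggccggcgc
Pgk1, chrX:106186950-106187099, plus strand: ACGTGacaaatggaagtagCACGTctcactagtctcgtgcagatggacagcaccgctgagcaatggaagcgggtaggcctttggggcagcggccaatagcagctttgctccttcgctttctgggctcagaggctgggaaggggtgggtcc
Hk2, chr6:82774455-82774604, minus strand: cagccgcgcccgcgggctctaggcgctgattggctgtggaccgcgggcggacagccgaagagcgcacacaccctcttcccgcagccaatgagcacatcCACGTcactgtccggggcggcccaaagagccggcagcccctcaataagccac
The core lay in the 250 bases before the start for 13 of 24 called members with a RefSeq promoter (54.2%), for 8 of 11 members that were not called (72.7%), and for 24.7% of the tested genes matched to the table. This short core also occurs within the E-box CACGTG and is frequent, so a match says little of any single gene.

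Of 24 tested genes of cholesterol synthesis and its regulator SREBP2, 6 were higher with HiFi-RfxCas13d (25%, against 1.37% of all genes) and 0 were lower, with a median of 0.07 and 22 of the 24 above 0. Cyp51, which encodes the lanosterol demethylase, was at 275, 280 and 275 CPM and at 280, 279 and 273 CPM in the NTG and mATXN2 arms of RfxCas13d. With HiFi-RfxCas13d it was at 311, 300 and 311 CPM and at 298, 300 and 299 CPM. All HiFi-RfxCas13d samples were higher, by 9.45% on average (0.13, SE 0.017, adjusted p = 1.38e-05). Untransfected cells had 276 to 281 CPM and DiCas7-11 had 265 to 291 CPM, so the HiFi-RfxCas13d samples also lay above these. The summed level of the 25 listed genes, tested or not, did not follow that order. It was 3180 to 3268 CPM with RfxCas13d, 3350 to 3417 CPM with HiFi-RfxCas13d and 3224 to 3303 CPM with DiCas7-11, while untransfected cells, at 3363 to 3405 CPM, overlapped with HiFi-RfxCas13d and lay above RfxCas13d. Hsd17b7, a sterol ketoreductase, rose by the largest amount among the called members (0.22, SE 0.034, adjusted p = 0.000177). The epoxidase Sqle (0.12), the synthase Hmgcs1 (0.08) and the SREBP regulator Insig1 (0.10) were also called without overlap, and Nsdhl (0.15) with overlap. The other 18 tested members were not called.

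**Figure D4:**
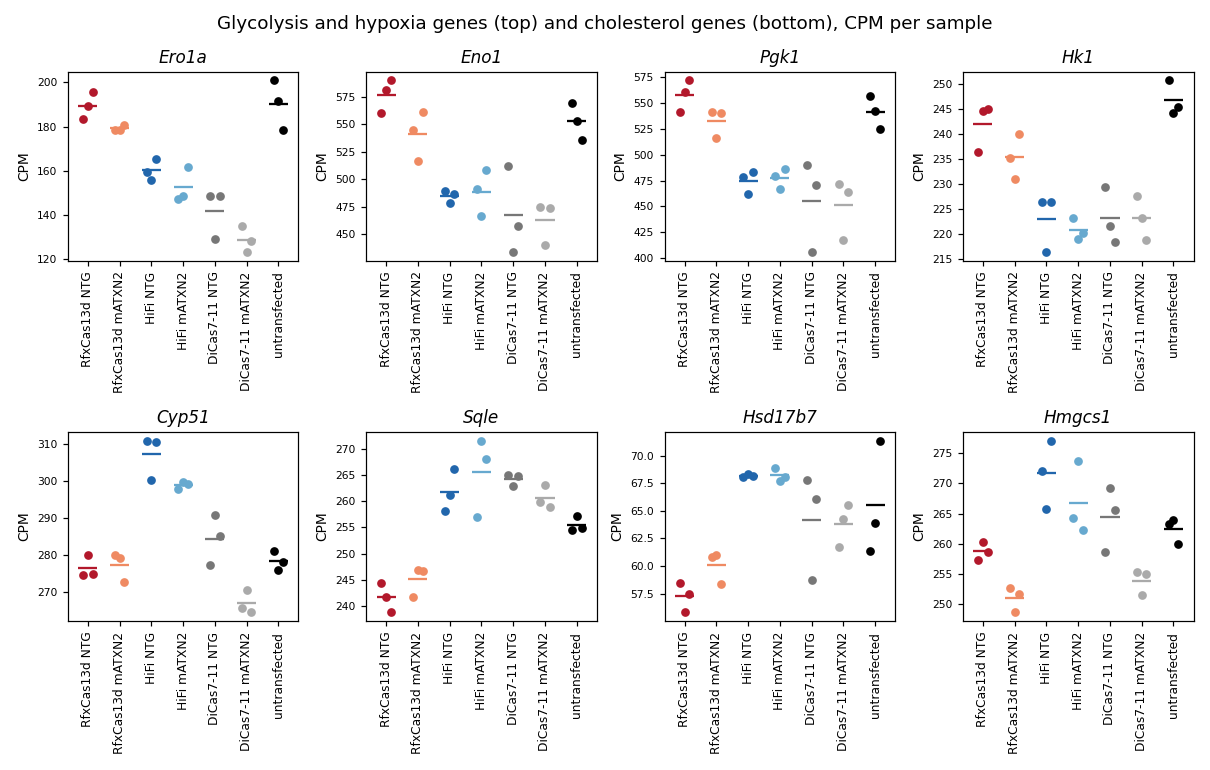
CPM per sample on linear axes that do not start at 0, for the 4 called glycolysis and hypoxia genes (top) and the 4 called cholesterol genes (bottom) with the smallest p, where each point is 1 sample and each line the mean of 3 samples. The 6 HiFi-RfxCas13d samples (blue) lie below the 6 RfxCas13d samples (red and orange) in the top row, as for Ero1a with 147 to 165 against 178 to 195 CPM, and above them in the bottom row, as for Cyp51 with 298 to 311 against 273 to 280 CPM.

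Other lists are read against the 1.96% of all genes that were lower and the 1.37% that were higher. Of the immediate early genes, which respond within minutes to growth factors and stress, 4 of 34 were lower (11.8%), among them the transcription factor Egr1 (-0.26) and Ier3 (-0.41), both without overlap between the 6 samples of each effector. Of the NRF2 antioxidant genes 6 of 26 were lower (23.1%, median -0.04). They included the pentose phosphate enzyme G6pdx (-0.13), the ferritin subunits Fth1 (-0.07) and Ftl1 (-0.07) and the heme oxygenase Hmox1 (-0.13). The calls for Ftl1 and Hmox1 were lost without any one of 10 and 7 libraries, with adjusted p-values up to 0.114 and 0.0844. The summed level of all 27 listed NRF2 genes was 4574 to 4781 CPM with RfxCas13d and 4455 to 4531 CPM with HiFi-RfxCas13d, without overlap. It was 4344 to 4395 CPM in untransfected cells. Of the basement membrane genes 5 of 19 were lower (26.3%, median -0.08), including the collagen chain Col4a2 (-0.13), Agrn (-0.13), Sparc (-0.14) and Lama5 (-0.23). Their sum was 3130 to 3194 CPM with RfxCas13d and 2983 to 3125 CPM with HiFi-RfxCas13d, also without overlap, and 3372 to 3476 CPM in untransfected cells. Of 40 genes for SR proteins and hnRNPs, which govern splicing, 5 were higher (12.5%) and 1 was lower (2.5%), with Ptbp2 (0.11), Syncrip (0.11) and Hnrnpr (0.07) among them. Of 43 genes of the integrated stress and unfolded protein responses, 2 chaperone genes of the endoplasmic reticulum were higher (4.65%), Hyou1 (0.11) and Dnajc3 (0.12), whereas Ddit3 (0.11) and Atf3 (0.05) were not called.

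No member was called among 82 cytosolic and 78 mitochondrial ribosomal protein genes, 34 replication-dependent histone genes or 29 genes of cytosolic and mitochondrial chaperones. The same held for 23 genes of the p53 pathway, 14 neuroblastoma transcription factors and 6 H3-K4 methyltransferases. The medians of these lists were between -0.01 and 0.03. Over all genes 3.33% were called, so that the smaller of these lists would hold about as few calls at the background share, and a count of 0 there is not a result about their members. Of 79 subunits of oxidative phosphorylation 1 was called, Cox8a (-0.11), and of 47 genes with a very long coding sequence 1 was called, Ahnak (-0.27). The Cox8a call was lost without any one of 9 libraries, with adjusted p-values up to 0.16, and with DESeq2.

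**Figure D5:**
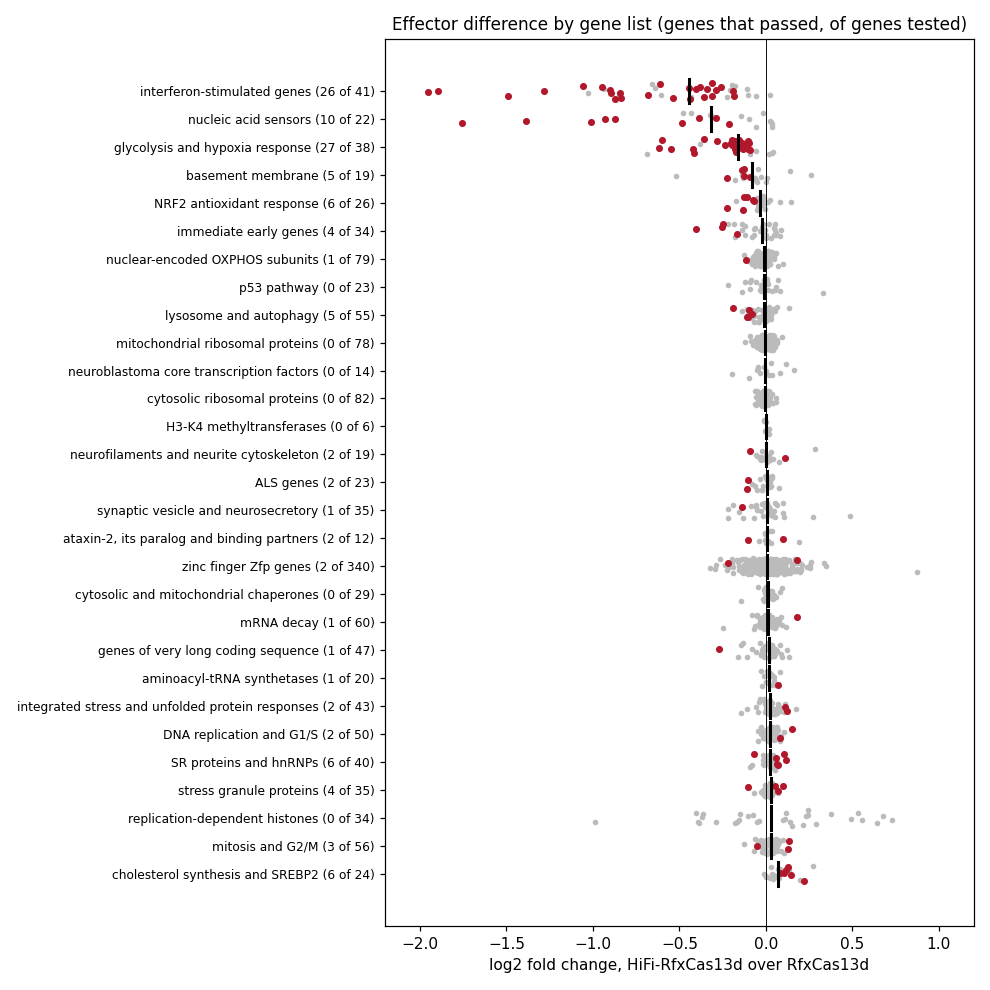
Each point is 1 tested gene, placed by its log2 fold change, HiFi-RfxCas13d over RfxCas13d, in a row for its list, with red for genes that passed the test, a black bar for the median and 3 genes outside the plotted range. The ISGs, the sensors and the glycolysis and hypoxia genes have the lowest medians (-0.45, -0.32 and -0.16), and the cholesterol genes have the highest (0.07) of the lists plotted, which leave out the markers of other cell types.

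Among called genes that averaged 50 counts or more and kept 1 direction in both arms, the 12 largest falls were mostly genes of the interferon response: Usp18, Oas1a, Xaf1, Igtp, Irgm2, Ifitm3, Oasl2, Bst2, Irf9, Apol9a and Ddx58, between -1.95 and -0.88. The remaining one, Vwa1 (-1.59), which encodes a matrix protein, rested on replicate 2 of RfxCas13d with the mATXN2 crRNA. It was at 32.8 CPM there and at no more than 3.55 CPM in the other 11 samples, and without that library Vwa1 was at -0.45 with an adjusted p of 0.12. The call was lost when any one of 10 of the 12 libraries was left out.

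The 12 largest rises were smaller, between 0.20 and 0.48. Prrxl1, a homeodomain factor of sensory neurons, was at 11.7 to 15.7 CPM with RfxCas13d and at 15.9 to 19.7 CPM with HiFi-RfxCas13d (0.39, SE 0.076, adjusted p = 0.00296). Id2, an inhibitor of basic helix-loop-helix factors, was at 18.8 to 20.7 CPM and at 22.6 to 26 CPM (0.31, SE 0.058, adjusted p = 0.00197). The histone deacetylase Hdac9 rose by 0.23 (SE 0.037, adjusted p = 0.000245), with 46.3 to 50.5 CPM against 55.3 to 58.3 CPM. In all 3, the 6 samples of HiFi-RfxCas13d lay above the 6 of RfxCas13d. Of the others, Hsd17b7 is described above, and Disc1 (0.25), Nyap2 (0.22), Nucb2 (0.21), Rgl1 (0.21), LOC118567664 (0.21), St18 (0.20), Csmd1 (0.35) and Gm46468 (0.48) were called. Csmd1, Disc1 and Gm46468 were no longer called when any one of 10, 9 and 11 of the 12 libraries, respectively, was left out, with adjusted p-values up to 0.123. The call for Rgl1 was lost without any one of 8 libraries, with adjusted p-values up to 0.182, and in 6 of the other alternative fits, and that for Nucb2 without any one of 5, with adjusted p-values up to 0.0685.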

How the data were processed

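RNA-seq libraries were made with a stranded mRNA kit. The authors quantified reads with Salmon (version 1.5.2) against the NCBI mouse transcriptome, with the GRCm39 genome as decoy, and summed transcripts to genes with tximport's lengthScaledTPM method. The deposited values are expected counts of 39253 genes without scaling to library size, and were rounded to whole numbers here. Genes that reached 0.5 CPM in 3 or more of the 24 samples were tested, and edgeR (version 4.0.16, R 4.3.3) was fitted to all 24 samples with TMM normalization and 1 coefficient for each of 8 groups. Columns named EV and G12 were matched to NTG and G10 samples by effector, arm and replicate number. Replicates are separate samples in the labels; p-values measure the spread between them. The members, gene lists and tests were chosen with earlier results of these data known. Genes were named by a rule: Atxn2, the 12 largest rises and falls, and list members that were called. Lists were described by counts and medians, with no test of their own. Alternatives were DESeq2 (version 1.42.0), limma-trend (version 3.58.1), other normalization, filters, sample sets and a coding length correction, and the tests were checked on simulated data. Differences per gene between replicates were 1.68 to 2.55 times counting noise (chi-square), so depth and replicate spread both limit precision. Same-numbered samples did not deviate together (correlations -0.045 to 0.054). Some genes are not reported here.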

Additional observations from a re-analysis of the deposited data

How the results depend on the processing

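Counts of called genes depended on the filter, the samples in the fit and single libraries. The effector difference, mean of both crRNA arms, gave 463 calls, and 705 with every gene of nonzero count. A fit of only the 12 samples gave 635, 582 with the arm as an additive block, 705 with the replicate number added as a block, and 706 with a coding length correction as well. The effector difference, NTG arm, went from 86 to 254 with every nonzero gene, 161 with only the 12 samples, 201 with the replicate block and 208 with the block and length correction. The effector difference, mATXN2 arm, went from 130 to 400, 250, 315 and 320 in the same order, and the interaction of effector and crRNA arm from 0 to 84, 1, 2 and 6. The replicate numbers do not pair the samples, with 0 of 6 same-numbered pairs correlated above 0.1. DESeq2 called 404 genes, 374 of them among the 463, and limma-trend 462, 451 of them shared. Leaving out 1 library gave 239 to 460 calls for the mean, 34 to 85 for the NTG arm, 42 to 122 for the mATXN2 arm and 0 to 0 for the interaction. The mean fell to 301 without RfxCas13d NTG replicate 2, 273 and 304 without RfxCas13d mATXN2 replicates 1 and 3, 300 and 265 without HiFi-RfxCas13d NTG replicates 2 and 3, and 239 without HiFi-RfxCas13d mATXN2 replicate 2. The NTG arm fell to 46, 55 and 41 without RfxCas13d NTG replicates 1, 2 and 3 and to 34 and 40 without HiFi-RfxCas13d NTG replicates 2 and 3. The mATXN2 arm fell to 80, 62 and 61 without RfxCas13d mATXN2 replicates 1, 2 and 3 and to 42 without HiFi-RfxCas13d mATXN2 replicate 2. Members called ranged from 32 to 37 for the sensors and ISGs, 17 to 26 for glycolysis and hypoxia and 5 to 6 for cholesterol synthesis. Atxn2 ranged from -0.11 to -0.0793 for the mean, -0.18 to -0.14 in the mATXN2 arm, -0.17 to -0.11 for the interaction and -0.0588 to 0.0063 in the NTG arm, where its sign turned without HiFi-RfxCas13d NTG replicate 2. None of the 128 named genes and called list members changed sign under any of these alternatives, and 87 of them remained called without HiFi-RfxCas13d mATXN2 replicate 2. The causes were not tested.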

Other observations

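A few single genes outside the lists were picked after their values were seen, for no group and with no test beyond edgeR's quasi-likelihood test over all genes. Nop2, a methyltransferase of ribosomal RNA, was at 109 to 119 CPM with RfxCas13d and 120 to 124 CPM with HiFi-RfxCas13d, and was called (0.09 on the log2 scale, SE 0.0224, adjusted p = 0.0236). Kpna4, an importin of nuclear transport, was called (0.15, SE 0.0256, adjusted p = 0.000616), with overlapping ranges of 194 to 219 CPM and 215 to 236 CPM. Acta2, the smooth muscle actin, was at 8.58 to 10.5 CPM with RfxCas13d and 5.64 to 8.32 CPM with HiFi-RfxCas13d (-0.43, SE 0.0991, adjusted p = 0.0119), and at 33.3 to 37.1 CPM in untransfected cells.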
